A study of Homo sapiens with 12 samples.

Results

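The miR-29 family was examined through its 4 precursor genes, MIR29A, MIR29B1, MIR29B2 and MIR29C, out of 1881 miRNA precursor rows. The members were chosen by name: rows whose Ensembl identifier carries one of these 4 gene names in GENCODE. The samples came from the human melanoma line A375 and from A375-BIR, which the labels name as resistant to BRAF inhibitors, the class to which dabrafenib belongs. Small RNA was sequenced from A375 in DMSO, A375 in dabrafenib, A375-BIR in DMSO and A375-BIR in dabrafenib. DMSO, the vehicle, was given at 0.1% and dabrafenib at 200 nM, each for 48 h, with 3 libraries per line and treatment, labelled as biological replicates, and 12 libraries in all. There is 1 resistant line, so that resistance and any other difference between A375-BIR and A375 cannot be told apart.

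A microRNA is a short RNA cut from a hairpin precursor that lowers the output of messenger RNAs paired with its seed, the bases near its 5′ end. The miR-29 family is known for repressing collagens and other matrix proteins, the survival protein MCL1 and the DNA methyltransferases. In many tumours it is described as lost or repressed, and MYC is among its known repressors.

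The mature 3p miRNAs of the family are shown because they explain which counts can be assigned to which precursor. Sequences are from RefSeq (GRCh38.p14), all 4 members matched, and capitals mark the seed, bases 2 to 8 from the 5′ end.
hsa-miR-29a-3p: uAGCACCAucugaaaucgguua
hsa-miR-29b-3p: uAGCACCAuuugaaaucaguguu
hsa-miR-29c-3p: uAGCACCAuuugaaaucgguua
All 3 share one seed, and 0 other of 2370 mature names in the table have it at the same position. Counted from the 5′ end, miR-29a-3p and miR-29c-3p differ at 1 base (C10U), and miR-29a-3p and miR-29b-3p at 4 of the 22 bases compared (C10U, G18A, U21G and A22U). MIR29B1 and MIR29B2 give the identical mature miR-29b-3p, and their hairpins share 25 bases in a row, so a read of miR-29b-3p fits either gene. MIR29B1 and MIR29C share 22 bases in a row. The MIR29A hairpin shares at most 14 bases in a row with another member. The opposite arms of the miR-29b hairpins differ from each other, and capitals again mark bases 2 to 8.
hsa-miR-29b-1-5p: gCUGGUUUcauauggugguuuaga
hsa-miR-29b-2-5p: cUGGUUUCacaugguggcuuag

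The genes stand in pairs on the minus strand of hg38. MIR29A (chr7:130876747-130876810) and MIR29B1 (chr7:130877459-130877539) lie 648 bases apart within LINC-PINT, a long noncoding RNA gene of the same strand. MIR29A is intronic in all 11 LINC-PINT transcripts that span it, and MIR29B1 is intronic in 11 of 12 and exonic in 1. LINC00513 overlaps the pair on the opposite strand, where 2 of its transcripts span each hairpin by an intron. MIR29C (chr1:207801852-207801939) and MIR29B2 (chr1:207802443-207802523) lie 503 bases apart within their host gene MIR29B2CHG, and each is exonic in 1 and intronic in 4 of the 5 spanning transcripts.

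Every dabrafenib library had fewer counts than every DMSO library. Expected counts summed to 77264, 121802 and 86898 in A375 in DMSO, and to 47507, 51532 and 36955 in A375 in dabrafenib. They summed to 106427, 120625 and 122792 in A375-BIR in DMSO, and to 35070, 59899 and 47607 in A375-BIR in dabrafenib. Of the counts of a DMSO library, 2.65% to 5.59% fell on rows that share at least 18 bases with the ribosomal RNA precursor (rRNA-like rows), against 14.4% to 26.3% in a dabrafenib library. A precursor without a count could still stand at up to 20.7 CPM (TMM-scaled counts) in replicate 3 of A375-BIR in DMSO and at up to 99.7 CPM in replicate 3 of A375 in dabrafenib, the lowest and the highest limit that 3 counts give. Such limits, and the Wilson intervals of the shares below, cover counting error only. The intervals of the fold changes below come from fits over replicate libraries and include the spread between libraries. The reads carry no molecular identifiers here.

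Precursors known as markers were counted to check the cell label. Of 8 pigment-lineage and melanoma precursors, 7 had a count, led by MIR204 with 1265 counts in the 12 libraries, while MIR211 had 44 and MIR514A1 had 0. The pigment list summed to a mean of 2992 CPM in A375 in DMSO, 8444 in A375 in dabrafenib, 199.7 in A375-BIR in DMSO and 514 in A375-BIR in dabrafenib. Its 4 tested rows were all higher in A375 than in A375-BIR over both treatments, where 60% of the 175 tested rows were called and 25.7% were higher in A375. MIR204 was higher by a log2 fold change of 3.999 (SE 0.25, adjusted p = 5.09e-09), and MIR509-3 by 4.30 (SE 0.27, adjusted p = 5.09e-09). MIR509-1 and MIR509-2 are copies with identical counts, and each was higher by 4.49 (SE 0.25, adjusted p = 1.36e-09). The MIR509 rows passed the low count filter through A375 alone, with 10.3 to 12.3 counts in the 6 A375-BIR libraries together, which favours a higher value in A375 among the tested rows. With no filter 7 rows of the list were fitted, of which 5 were higher and 0 lower in A375. Of all 839 rows fitted without a filter, 5.6% were higher and 9.65% lower. In bulk RNA, fewer cells of a type and less RNA per cell cannot be told apart.

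In A375 dabrafenib raised MIR204 by 1.84 (SE 0.29, adjusted p = 2.89e-04), a call kept in every alternative. All 4 tested pigment rows were called higher there, against 18.3% of the tested rows called higher and 25.1% called in either direction. In A375-BIR MIR204 stood at 1.16 (SE 0.41, adjusted p = 0.0632), and the difference between the lines in this response, 0.69 (SE 0.51, adjusted p = 0.560), did not pass the threshold. The MIR509 rows had between 4.66 and 6.67 counts per group of 3 A375-BIR libraries, too few to read a response in that line. In A375, over the alternatives other than left-out libraries, the MIR509 copies ranged from 0.30 to 0.80 and MIR509-3 from 0.31 to 0.82. The calls of the MIR509 rows in A375 (0.80 for the copies, 0.81 for MIR509-3) were lost with either other filter, either other scaling, the DESeq2 Wald test and the replicate block. They were also lost without replicate 1, 2 or 3 of A375 in DMSO (0.77, 0.83 and 0.80 for the copies, 0.81, 0.83 and 0.78 for MIR509-3) or replicate 3 of A375 in dabrafenib (0.69 and 0.70), and that of MIR509-3 without replicate 2 of A375 in dabrafenib (0.82) or without rRNA-like rows (0.68).

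Markers of other tissues were scarce. The 5 blood precursors summed to at most 8 counts in a library, with MIR451A and MIR486-1 at 0 and MIR142 the most abundant at 22.5 counts in all libraries. The 6 epithelial precursors summed to at most 13 counts in a library, led by MIR205 with 62 in all, with MIR429 at 0, the 5 muscle precursors to at most 6, led by MIR1-2 with 7.11 in all, and the liver precursor MIR122 had 0.

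Nearly all family counts were assigned to the chromosome 7 pair. Of 651 family counts in the 12 libraries, the counting gave 98.2% to MIR29A and MIR29B1 and 1.77% to MIR29B2 and MIR29C. For miR-29b-3p, which is identical from MIR29B1 and MIR29B2, this is an allocation by RSEM, and these data cannot tell from which of the 2 genes such a read came. MIR29A had 368 counts, and its value was a whole number, within 0.001, in 12 of 12 libraries. MIR29B1 had 271 counts and a whole number in 6 of 12 libraries. RSEM gives fractions where a read fits more than 1 entry of its reference. The sum of all 4 members was also not a whole number in 4 libraries. No other precursor row was found to share at least 16 bases with the family, and where the rest of those reads went was not analysed further. MIR29B2 had 5.5 counts in all, at most 1.5 in a library, and MIR29C had 6 in all, at most 2 in a library. Per 100 bases of hairpin this came to 575 counts for MIR29A, 335 for MIR29B1, 6.79 for MIR29B2 and 6.82 for MIR29C. The hairpins are 64 bases long for MIR29A and 81 for MIR29B1, so the division itself widens the gap between these 2. By mean CPM over the 12 libraries MIR29A ranked 103 and MIR29B1 117 among the 1881 rows. The low count filter kept 175 rows, among them MIR29A and MIR29B1, which each line alone would have carried past it. MIR29B2, MIR29C and the sum of these 2 stayed below it.

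MIR29A gives miR-29a. In A375 in DMSO it was read 20, 21 and 15 times in replicates 1, 2 and 3, which is 239, 159 and 158 CPM. In A375 in dabrafenib it was read 6, 11 and 4 times, or 156, 310.4 and 133 CPM. A375 thus stayed at low values in either treatment, with replicate 2 in dabrafenib the highest of its 6 libraries. In A375-BIR in DMSO the counts were 63, 81 and 66, or 570.7, 635 and 456 CPM. In A375-BIR in dabrafenib they were 14, 30 and 37, or 382, 451 and 748 CPM. Every A375-BIR library stood above every A375 library, and within a line the treatments overlapped. How many other tested rows separate the lines without overlap was not counted. The group means were 554 ± 90.6 CPM (SD, n = 3) in A375-BIR in DMSO, 527 ± 195 in A375-BIR in dabrafenib, 199.9 ± 96.4 in A375 in dabrafenib and 186 ± 46.7 in A375 in DMSO.

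**Figure D1:**
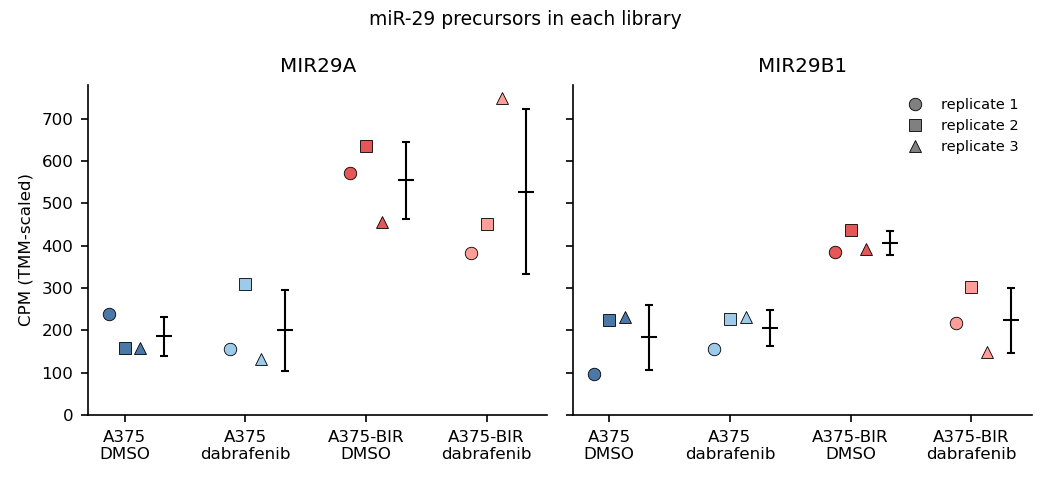
CPM of MIR29A and MIR29B1 in each of the 12 libraries, with symbols for replicates and bars for the group mean ± SD (n = 3). All 6 A375-BIR libraries lie above all 6 A375 libraries for MIR29A, while for MIR29B1 only the A375-BIR libraries in DMSO (385 to 438 CPM) lie above every other library. The share of other rows that separate in this way was not counted.

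MIR29B1 gives miR-29b. In A375 in DMSO it had 8, 29.5 and 22 expected counts, or 95.8, 224 and 231 CPM. In A375 in dabrafenib it had 6, 8 and 7, or 156, 226 and 233 CPM. Replicate 1 in DMSO was the lowest A375 library, and the treatments overlapped. In A375-BIR in DMSO the expected counts were 42.5, 55.8 and 56.8, or 385, 438 and 393 CPM. In A375-BIR in dabrafenib they were 8, 20.2 and 7.33, or 218, 303 and 148 CPM. The A375-BIR libraries in DMSO were above all others, and those in dabrafenib overlapped A375 except for replicate 2, which stood above every A375 library. The means were 405 ± 28.5 CPM (SD, n = 3) in A375-BIR in DMSO, 223 ± 77.7 in A375-BIR in dabrafenib, 205 ± 42.1 in A375 in dabrafenib and 184 ± 76.2 in A375 in DMSO.

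The comparison of the lines asked which precursors differ between sensitive and resistant cells. Over both treatments MIR29A was 2.81 times as high in A375-BIR as in A375 (log2 fold change A375 over A375-BIR −1.49, SE 0.24, edgeR quasi-likelihood test, adjusted p = 8.00e-05). Called rows made up 60% of the 175 tested in this comparison, and both tested members were among them. The exact two-sided permutation test, with line labels exchanged within each treatment (400 arrangements), gave p = 0.005 for MIR29A, the smallest it can give, unadjusted among 45 such tests. MIR29A was also higher in A375-BIR within DMSO (−1.59, SE 0.30, adjusted p = 5.55e-04), where 46.3% of tested rows were called, and within dabrafenib (−1.39, SE 0.38, adjusted p = 0.00797), where 46.3% were called. Its direction and its call in these 3 comparisons held under each alternative scaling, test and filter and without any 1 library. Without the rRNA-like rows the value in dabrafenib was −1.56. That value ranged from −1.85 to −1.06 with 1 library left out and from −1.87 to −1.33 over the other alternatives. The comparisons share libraries, so their values are not independent.

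MIR29B1 was higher in A375-BIR in DMSO (−1.09, SE 0.30, adjusted p = 0.00799), which is 2.13 times the A375 level. In dabrafenib its value was −0.15 (SE 0.42, 95% interval −1.05 to 0.74, adjusted p = 0.837). This interval includes 0 and overlaps the 95% interval in DMSO, −1.74 to −0.44. Without replicate 2 of A375-BIR in dabrafenib this value was 0.20, and in the alternatives other than left-out libraries it reached −0.64. The difference between these line effects was 0.94 (SE 0.52, adjusted p = 0.350) and did not pass the threshold. Over both treatments MIR29B1 stood at −0.62 (SE 0.26, adjusted p = 0.0497), at the edge of the threshold. With the replicate number as a block, the adjusted p was 0.0521 at −0.62. The exact permutation test gave p = 0.055.

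That edge call of MIR29B1 was lost when any 1 of 9 libraries was left out, in some of these fits with a value as large as before. It was lost without replicate 1, 2 or 3 of A375 in dabrafenib (−0.56, −0.66 and −0.67), and without replicate 1 of A375 in DMSO (−0.48). It was also lost without replicate 1 or 2 of A375-BIR in dabrafenib (−0.63 and −0.44), and without replicate 1, 2 or 3 of A375-BIR in DMSO (−0.67, −0.59 and −0.61). DESeq2 size factors (−0.48) and the DESeq2 Wald test (−0.52) did not call it either, and the Wald test did not call MIR29B1 in DMSO (−0.94, adjusted p = 0.0502). The negative direction held under each of these.

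**Figure D2:**
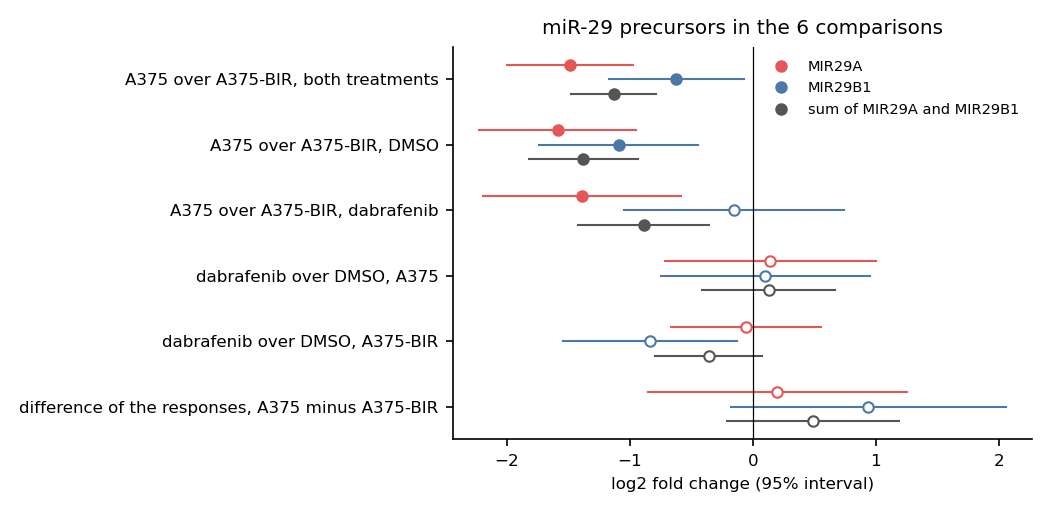
Log2 fold changes of MIR29A, MIR29B1 and their sum in the 6 comparisons, with 95% intervals; filled points passed the adjusted threshold of 0.05 and open points did not. MIR29A and the sum lie below 0 in all 3 comparisons of the lines, and MIR29B1 in dabrafenib is at −0.15.

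Sums by cluster were fitted in place of their members. The sum of MIR29A and MIR29B1 was higher in A375-BIR over both treatments (−1.13, SE 0.16, adjusted p = 3.50e-05), in DMSO (−1.38, SE 0.20, adjusted p = 9.64e-05) and in dabrafenib (−0.89, SE 0.25, adjusted p = 0.00931). Over all 4 members the value was −1.14 (adjusted p = 3.73e-05) for both treatments and −1.35 (adjusted p = 1.34e-04) in DMSO. The sum of MIR29B1 and MIR29B2, which removes the division of reads between these 2 genes only, gave −0.65 (adjusted p = 0.0312) over both treatments and −1.09 (adjusted p = 0.00477) in DMSO. In dabrafenib it gave −0.20 (SE 0.39, adjusted p = 0.723), and 0.12 without replicate 2 of A375-BIR in dabrafenib. Its line effects in dabrafenib and DMSO differed by 0.90 (SE 0.48, adjusted p = 0.338), which did not pass the threshold. The call over both treatments was lost with DESeq2 size factors (−0.51) and the DESeq2 Wald test (−0.54), and without replicate 1 of A375 in dabrafenib (−0.58), replicate 1 of A375 in DMSO (−0.52), replicate 2 of A375-BIR in dabrafenib (−0.49) or replicate 2 of A375-BIR in DMSO (−0.62).

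Too few counts were assigned to the chromosome 1 pair for a comparison, and part of those assigned to MIR29B1 could come from MIR29B2. MIR29B2 and MIR29C together had 3.5 counts in the 6 libraries of A375 and 8 in those of A375-BIR, and 0 in all 3 libraries of A375 in dabrafenib. The exact permutation test of the line gave p = 0.35 for MIR29B2 and p = 0.65 for MIR29C on log2 CPM. A difference in these precursors was not detectable from the assigned counts.

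Dabrafenib changed neither tested member beyond the threshold. MIR29A stood at 0.14 (SE 0.40, adjusted p = 0.814) in A375, where 25.1% of tested rows were called and 0 of the 2 tested members. In A375-BIR it stood at −0.06 (SE 0.28, adjusted p = 0.939), where 20.6% of tested rows were called and again 0 of the 2 tested members. The 95% intervals ran from −0.72 to 1.00 in A375 and from −0.67 to 0.55 in A375-BIR, so changes within these bounds were not excluded. MIR29B1 stood at 0.10 (SE 0.40, adjusted p = 0.866) in A375 and at −0.84 (SE 0.33, adjusted p = 0.0847) in A375-BIR. There all 3 libraries in dabrafenib were below all 3 in DMSO. The exact permutation test gave p = 0.1 for this, unadjusted, the smallest possible with 3 against 3. How many other tested rows separate in this way was not counted. That fall in A375-BIR passed the threshold with the 1 CPM filter (−1.05, adjusted p = 0.0320) and with DESeq2 size factors (−0.94, adjusted p = 0.0402), and in the other alternatives its adjusted p reached 0.259.

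The difference between the lines in the response to dabrafenib was 0.20 for MIR29A (SE 0.49, adjusted p = 0.894) and 0.94 for MIR29B1 (adjusted p = 0.350), with 3.43% of tested rows called and 0 of the 2 members. Without 1 library, the count of called rows fell from 36 to 20 or 22 for dabrafenib in A375-BIR (replicate 1 or 2 of A375-BIR in DMSO), and from 6 to 3 for the difference (replicate 1 or 2 of A375 in dabrafenib, or replicate 1 of A375 in DMSO). Values near 0 in A375 changed sign with the scaling: with total counts in place of TMM, MIR29A stood at −0.37 and MIR29B1 at −0.40, neither past the threshold. Leaving out 1 library turned MIR29A in A375 to −0.32 (replicate 2 in dabrafenib) and MIR29B1 to −0.18 (replicate 1 in DMSO). It turned MIR29A in A375-BIR to 0.09 or 0.06 (replicate 1 or 2 of that line in dabrafenib), to 0.05 (replicate 1 or 2 of that line in DMSO) and to 0.02 (replicate 1 of A375 in dabrafenib). Without replicate 2 of A375 in dabrafenib the difference for MIR29A was −0.26. That scaling moved the median of all tested rows by −0.24 for the lines over both treatments, −0.48 for the lines in dabrafenib and −0.50 for dabrafenib in A375. DESeq2 size factors moved it by 0.14, 0.08 and −0.21. The part of depth and of the rRNA-like share in the dabrafenib comparisons was not tested beyond these fits.

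The share of family counts on MIR29A does not depend on the scaling between libraries. In A375 in DMSO it was 69.0% (95% Wilson interval 50.8 to 82.7), 40.4% (28.2 to 53.9) and 39.5% (25.6 to 55.3) in replicates 1, 2 and 3. In A375 in dabrafenib it was 50.0% (25.4 to 74.6), 57.9% (36.3 to 76.9) and 36.4% (15.2 to 64.6). The intervals are wide, and replicate 1 in DMSO was the highest of A375. In A375-BIR in DMSO the share was 57.8% (48.4 to 66.6), 58.8% (50.4 to 66.6) and 53.5% (44.7 to 62.1). In A375-BIR in dabrafenib it was 63.6% (43.0 to 80.3), 57.5% (44.03 to 69.9) and 81.6% (68.0 to 90.3). The lines overlapped because of replicate 1 of A375 in DMSO and replicate 2 of A375 in dabrafenib.

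The MIR29A share in A375 minus that in A375-BIR was −13.3 points on average, and the exact permutation test within treatments gave p = 0.08. Means were 49.6 ± 16.8% (SD, n = 3) in A375 in DMSO, 48.1 ± 10.9% in A375 in dabrafenib, 56.7 ± 2.80% in A375-BIR in DMSO and 67.6 ± 12.5% in A375-BIR in dabrafenib. Without replicate 1 of A375 in DMSO the difference, A375 minus A375-BIR, went from −13.3 to −18.1 points, with an exact p = 0.01. An unequal line effect of MIR29A and MIR29B1 was therefore not shown with all 12 libraries.

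**Figure D3:**
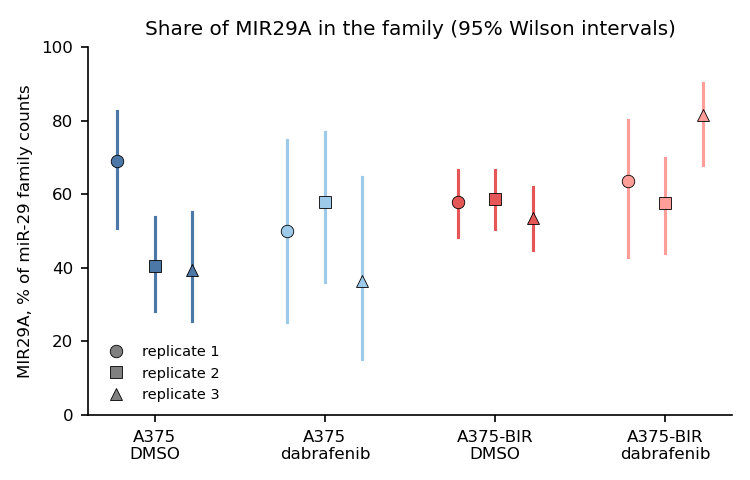
Percent of miR-29 family counts on MIR29A in each library, with 95% Wilson intervals and symbols for replicates. The A375-BIR libraries lie between 53.5% and 81.6%, and the A375 libraries between 36.4% and 69.0%.

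The tested neighbours on chromosome 7 were lower in A375. Within 10 Mb of MIR29A and MIR29B1 lie 12 other precursor rows, of which 3 were tested and all 3 were called in the comparison of the lines over both treatments, where 60% of tested rows were called and 34.3% were lower in A375. Distances are negative toward lower coordinates. MIR182, at −1.11 Mb, stood at −2.50 (SE 0.12, adjusted p = 6.44e-10), and MIR183, at −1.10 Mb, at −2.15 (SE 0.59, adjusted p = 0.00616). MIR182 and MIR183 belong to one cluster with MIR96, which had 1 count. Without replicate 3 of A375 in dabrafenib the value of MIR183 was −2.87. MIR3654, at 2.16 Mb, stood at −1.31 (SE 0.39, adjusted p = 0.00895).

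MIR183 and MIR3654 passed the low count filter through A375-BIR alone, which favours a lower value in A375, while MIR182 passed in both lines. With no filter 9 of the 12 rows were fitted, of which 3 were lower, the same ones, and 1 was higher in A375 (MIR129-1, named after its value was seen). Over all 839 rows fitted without a filter, 5.6% were higher and 9.65% lower.

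Within each treatment 2 of these 3 neighbours were called, against 46.3% of tested rows in DMSO and 46.3% in dabrafenib. MIR3654 was not called in DMSO (−0.83, SE 0.50, adjusted p = 0.180), where it stood at −0.0862 without replicate 3 of A375-BIR in DMSO, and MIR183 was not called in dabrafenib (−2.34, SE 1.00, adjusted p = 0.0711). MIR183 passed in dabrafenib without replicate 2 of A375-BIR in dabrafenib (−2.93) or replicate 3 of A375 in dabrafenib (−3.77), and under 6 other settings. The line effects in dabrafenib and DMSO differed by −0.97 for MIR3654 (adjusted p = 0.604) and by −0.38 for MIR183 (adjusted p = 0.952), neither past the threshold. Of the 12 tested rows of chromosome 7 outside the family, 3 were higher and 5 lower in A375, with a median of −0.10 beside −0.11 over all 175 tested rows. Copy number of the region was not analysed here.

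Around MIR29B2 and MIR29C, 2 of 11 other rows within 10 Mb were tested, and 0 of the 5 rows within 5 Mb. MIR181B1, at −8.94 Mb, was higher in A375 (0.48, SE 0.10, adjusted p = 5.67e-04), which was lost with the 1 CPM filter (0.34) and with no filter (0.33). Over the alternatives other than left-out libraries its value ranged from 0.24 to 0.62. MIR181A1 stood at 0.11 (SE 0.11, adjusted p = 0.414), and at −0.13 with total counts as scaling.

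**Figure D4:**
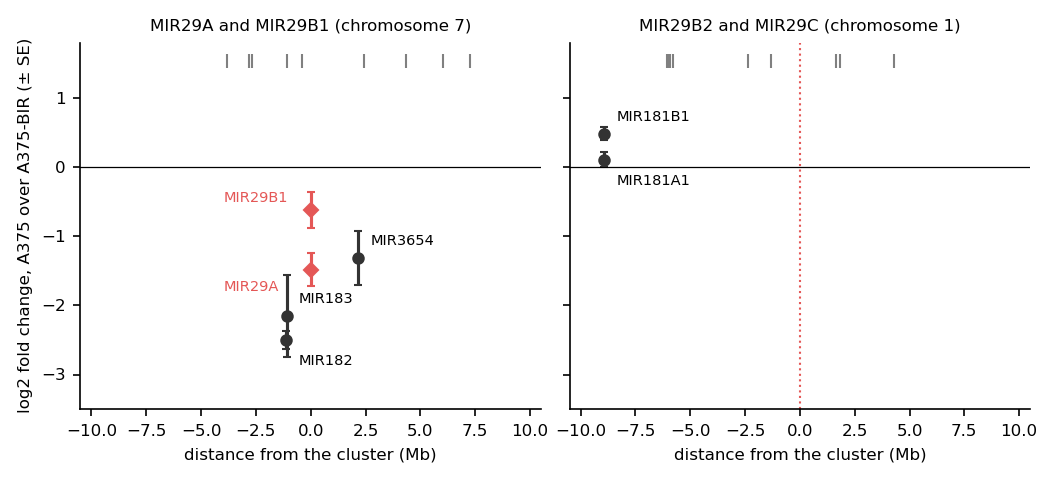
Log2 fold change of A375 over A375-BIR over both treatments (± SE) against the distance in Mb from each miR-29 pair; diamonds are MIR29A and MIR29B1, points the tested neighbours, grey ticks the neighbours below the low count filter, and the dotted line marks the untested chromosome 1 pair. On chromosome 7 the 3 tested neighbours lie between −2.50 and −1.31.

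Other precursors known to share the family's regulator or targets were listed by name and compared over both treatments. Of 24 precursors that MYC is known to repress, besides miR-29, 21 were tested, 6 were higher and 11 lower in A375, with a median of −0.43 beside −0.11 over all 175 tested rows. Of all tested rows 45 (25.7%) were higher and 60 (34.3%) lower in A375, which became 54 and 47 with DESeq2 size factors and 35 and 72 with total counts. Without any 1 library, 6 rows of the MYC-repressed list were higher and between 9 and 12 lower, and with DESeq2 size factors or the Wald test 6 and 8. MIR16-1, which was lower, and MIR23B, which was not called, passed the low count filter through A375-BIR alone. That favours lower values in A375, and both were named after their values were seen. With no filter 23 rows of the list were fitted, 6 higher and 11 lower, with a median of −0.58 beside −0.04 over all 839 rows fitted, of which 47 were higher and 81 lower. The most abundant were MIRLET7B, higher at 1.08 (SE 0.11, adjusted p = 1.22e-06), MIRLET7A1, lower at −0.50 (SE 0.08, adjusted p = 5.85e-05), and MIRLET7A3, lower at −0.50 (SE 0.08, adjusted p = 6.24e-05). The let-7a genes give the same mature miRNA, so their values are not independent. The same holds for MIR26A1 with MIR26A2 and for MIR30C1 with MIR30C2, all lower and named after their values were seen. The calls of MIR26A1 and MIR26A2 were lost in 7 and 6 of the fits without 1 library. The list thus moved in both directions.

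Of 16 precursors that MYC is known to activate, which include the miR-17-92 cluster, 10 were tested, 0 were higher and 5 lower in A375, with a median of −0.78 beside −0.11 over all tested rows (25.7% higher and 34.3% lower). MIR93 was lower at −0.996 (SE 0.25, adjusted p = 0.00347), while MIR92A1 stood at −0.16 (SE 0.15, adjusted p = 0.388) and MIR25 at −0.08 (SE 0.13, adjusted p = 0.589). Without replicate 3 of A375-BIR in DMSO MIR92A1 turned to 0.02, and without replicate 3 of A375-BIR in dabrafenib MIR25 turned to 0.01. The other lower rows, named after their values were seen, were MIR20A, MIR17, MIR106A and MIR378A. Rows of one cluster, such as MIR17 and MIR20A, are not independent. The calls of MIR17 and MIR106A were each lost in 6 of the fits without 1 library, and that of MIR378A in 3. MIR20A kept its call. MIR17, MIR18A, MIR20A and MIR106A passed the low count filter through A375-BIR alone, which favours lower values in A375. With no filter all 16 rows were fitted, among 839 rows in all, of which 5.6% were higher and 9.65% lower. Of the 16, 1 was higher (MIR363, named after its value was seen) and 5 lower, with a median of −0.66 beside −0.04. The count of 5 fell to 2 with DESeq2 size factors or its Wald test and rose to 7 with total counts. It was 2 without replicate 2 of A375-BIR in DMSO or replicate 3 of A375 in dabrafenib, and 3 without replicate 2 of A375-BIR in dabrafenib, replicate 1 of A375 in dabrafenib or replicate 3 of A375 in DMSO.

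Of 13 other precursors known to target MCL1, 7 were tested, 1 was higher and 4 lower in A375, with a median of −0.91 beside −0.11 over all tested rows (25.7% higher and 34.3% lower). MIR320A was higher at 0.50 (SE 0.10, adjusted p = 4.68e-04), whereas MIR125B1 was lower at −1.39 (SE 0.15, adjusted p = 3.74e-06) and MIR125B2 at −1.42 (SE 0.18, adjusted p = 1.31e-05). The MIR125B genes give the same mature miRNA. MIR16-1 and MIR16-2, named after their values were seen, were the other lower rows, share a mature miRNA and passed the low count filter through A375-BIR alone. With no filter 10 rows were fitted, 1 higher and 4 lower, with a median of −0.44. Of all 839 rows fitted without a filter, 5.6% were higher and 9.65% lower.

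Of 9 other precursors known to target DNA methyltransferases, 5 were tested, 1 was higher and 1 lower in A375, with a median of −0.37 beside −0.11 over all tested rows (25.7% higher and 34.3% lower). MIR342, named after its value was seen, stood at −0.60 (SE 0.25, adjusted p = 0.0537). It passed the low count filter through A375-BIR alone, which favours a lower value in A375. The count of 1 lower row became 3 with total counts and 2 without rRNA-like rows. It was also 2 without replicate 2 of A375-BIR in dabrafenib, replicate 1 of A375-BIR in DMSO or replicate 2 of A375 in dabrafenib, and 0 where the call of MIR148B was lost. With no filter all 9 rows were fitted, 1 higher and 1 lower, with a median of −0.23. Of all 839 rows fitted without a filter, 5.6% were higher and 9.65% lower. MIR148A was higher at 2.10 (SE 0.22, adjusted p = 1.99e-06) and its relative MIR148B lower at −0.77 (SE 0.27, adjusted p = 0.0255). MIR143 stood at 0.13 (SE 0.29, adjusted p = 0.717), at −0.12 with total counts as scaling and at −0.23 without replicate 3 of A375 in DMSO. The call of MIR148B was lost with DESeq2 size factors (−0.64) and the Wald test (−0.68), without replicate 2 of A375-BIR in DMSO (−0.60) and without replicate 3 of A375-BIR in dabrafenib (−0.58). It was also lost without replicate 2 or 3 of A375 in DMSO (−0.71 and −0.70) and without replicate 1 or 3 of A375 in dabrafenib (−0.76 and −0.73).

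Of 8 precursors known to rise with matrix deposition in fibrosis, where miR-29 is known to fall, 6 were tested, 3 were higher and 0 lower in A375, with a median of 1.03 beside −0.11 over all tested rows (25.7% higher and 34.3% lower). The higher rows, named after their values were seen, were MIR199A1 (2.19, SE 0.36, adjusted p = 1.02e-04), MIR199A2 (2.17, SE 0.36, adjusted p = 1.11e-04) and MIR199B (1.91, SE 0.30, adjusted p = 6.29e-05), which give the same or nearly the same mature miRNAs. They passed the low count filter through A375 alone, which favours higher values in A375. With no filter 7 rows were fitted, the same 3 were higher and 0 lower, against 5.6% higher and 9.65% lower of all 839 rows. The median was then 0.01 beside −0.04 over all rows fitted, so the median of 1.03 depends on the filter. The most abundant row, MIR21, stood at 0.15 (SE 0.12, adjusted p = 0.282), at −0.07 with total counts as scaling. MIR192, which passed the low count filter through A375-BIR alone, stood at −0.42 (SE 0.32, adjusted p = 0.282). MIR143, which is on this list too, is given above.

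**Figure D5:**
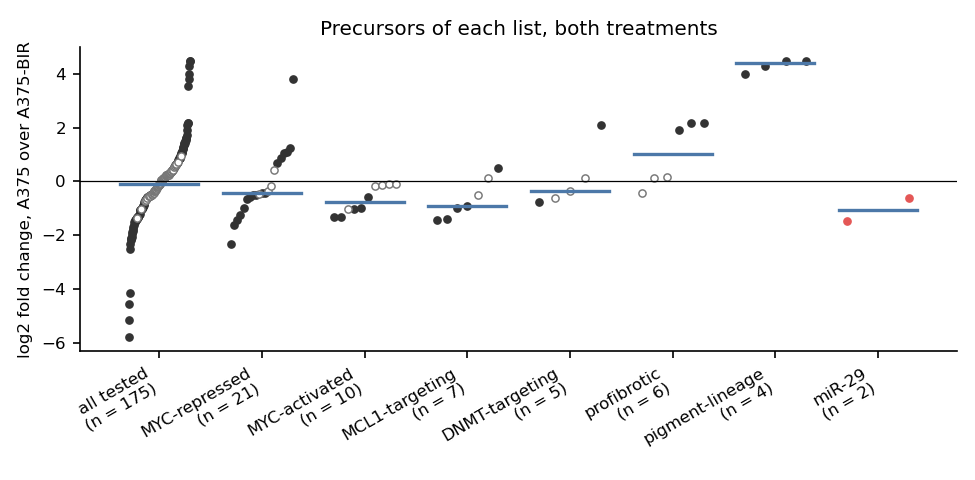
Log2 fold change of A375 over A375-BIR over both treatments for all 175 tested precursors and for the tested members of each list; filled points passed the adjusted threshold of 0.05, open points did not, and bars are medians. The MYC-repressed list spreads to both sides of 0 around its median of −0.43, and the 4 tested pigment-lineage precursors lie between 3.999 and 4.49.

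The precursors most like each tested member were ranked by Pearson's r of log2 CPM over the 12 libraries, a description in which the points share 2 lines and 2 treatments. MIR29A was most like MIR424 (r = 0.931), MIR30C2 (r = 0.925) and MIR1269A (r = 0.909). MIR29B1 was most like MIR296 (r = 0.721), MIR151A (r = 0.694) and MIRLET7E (r = 0.692). With a prior count of 0.5 the same genes were found, with MIR151A and MIRLET7E in reverse order. Over left-out libraries r ranged from 0.919 to 0.951 for MIR424, from 0.912 to 0.964 for MIR30C2 and from 0.888 to 0.930 for MIR1269A. For the genes named beside MIR29B1 it ranged more widely, from 0.631 to 0.804 for MIR296, from 0.633 to 0.759 for MIR151A and from 0.634 to 0.759 for MIRLET7E. The order within each set of 3 is therefore not fixed. MIR29A and MIR29B1, which lie 648 bases apart, had r = 0.386 with each other, which placed MIR29B1 at rank 65 for MIR29A and MIR29A at rank 48 for MIR29B1. In counts this low, a weak correlation says little about either gene.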

How the data were processed

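Small RNA libraries of 12 samples (4 groups of 3) were analysed from the tables deposited by the authors. RNA was made into libraries with the Lexogen small RNA kit and sequenced on an Illumina NovaSeq. The authors counted with RSEM 1.2.25 on hg38 and deposited expected counts, 1 value per miRNA precursor and library, and their methods list a filter against ribosomal RNA before counting. Arms of a hairpin were not separated, and a read that fits several precursors was divided among them. The methods name standard parameters, with which RSEM does not use strand.

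Of 1881 rows, 1879 matched GENCODE v44. Expected counts were rounded and tested with edgeR 4.0.16 in R 4.3.3: filterByExpr over the 4 groups (146 CPM, unscaled, in at least 3 libraries), TMM, one mean per group and the quasi-likelihood test. Adjusted p values are Benjamini-Hochberg over all 175 tested rows, with a threshold of 0.05. The F statistic gave the standard errors. CPM are edgeR's scaled counts, with TMM factors applied, log2 CPM used a prior count of 2, and the biological coefficient of variation was 21.6%. Sums replaced their members and the whole table was refitted. Exact permutation tests were two-sided, and with 3 libraries against 3 they cannot go below p = 0.1. Shares carry 95% Wilson intervals. No 2 libraries of a group were alike to within counting noise (chi-square divided by its degrees of freedom 2.50 to 32.1), so none was merged. Tables were made with pandas and figures with matplotlib.

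MIR29A and MIR29B1 were named in every comparison, and MIR29B2 and MIR29C in that of the lines over both treatments. Of each list the 3 tested rows with the highest mean CPM were named. So were all tested rows within 10 Mb of a member and the 3 rows most like each tested member. The members and lists were chosen with earlier results of these data known. Alternatives were a filter of 1 CPM in 3 libraries or none, DESeq2 size factors or total counts, removal of rRNA-like rows, the DESeq2 1.42.0 Wald test, the likelihood ratio test, fits of only the libraries compared, unrounded counts, copies summed, a prior count of 0.5, a window of 5 Mb, a replicate block and each library left out.

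After subtraction of group means, DMSO libraries with the same number correlated between the lines (r = 0.11, 0.22 and 0.30 over the tested rows), and for the other pairs of groups at least 1 correlation was below 0.1. This pairing comes from the data, since no label says that a number marks a shared batch.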

Additional observations from a re-analysis of the deposited data

Results flagged for a closer look

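MIR146A, also on the MYC-repressed list and named after its values were seen, responded to dabrafenib differently in the lines in the opposite direction to MIRLET7B (log2 difference A375 minus A375-BIR −1.27, SE 0.29, edgeR adjusted p = 0.0226). It fell in A375 (−0.71) and stood at 0.56 in A375-BIR, where it was not called (adjusted p = 0.0746). The call was kept in the alternatives of filter, scaling and test. It was lost without replicate 1 or 2 of A375-BIR in DMSO (−1.25 and −1.21), replicate 3 of A375-BIR in dabrafenib (−1.11), replicate 1 or 3 of A375 in DMSO (−1.26 and −1.22) or replicate 1 or 2 of A375 in dabrafenib (−1.22 and −1.33). The direction was the same throughout, and the cause was not tested.

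MIRLET7B, a member of the MYC-repressed list, responded to dabrafenib differently in the lines by the test of the difference itself (log2 difference A375 minus A375-BIR 0.89, SE 0.21, edgeR adjusted p = 0.0281). It rose in A375 by 0.95 and stood at 0.06 in A375-BIR. Across the alternatives the difference stayed positive, and its adjusted p ranged from 0.0199 to 0.315. The call was lost with another filter on low counts (0.71 and 0.72), other scaling (0.78 with DESeq2 size factors, 0.41 with total counts), the DESeq2 Wald test (0.77) and without the rRNA-like rows (0.73). It was also lost without replicate 1 or 2 of A375-BIR in DMSO (0.71 and 0.80), replicate 1 or 2 of A375-BIR in dabrafenib (0.87 and 0.84), replicate 1 or 3 of A375 in DMSO (0.86 and 0.87) or replicate 1, 2 or 3 of A375 in dabrafenib (0.90, 0.79 and 0.91). The cause was not tested. For the miR-29 members the same difference did not pass the threshold.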

How the results depend on the processing

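MIR29A and the sum of MIR29A and MIR29B1 kept direction and call in the 3 comparisons of the lines under every alternative. With 1 library left out, MIR29A ranged from −1.72 to −1.32 over both treatments and the sum from −1.26 to −1.05.

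MIR29B1 over both treatments lost its call with DESeq2 size factors (−0.48), the DESeq2 Wald test (−0.52), the replicate block (−0.62) and 9 of the 12 left-out libraries (range −0.74 to −0.44). The replicate block changed no other call among the members and sums. MIR29B1 in DMSO lost its call with the Wald test (−0.94). In dabrafenib MIR29B1 ranged from −0.39 to 0.20 with 1 library left out and from −0.64 to −0.069 in the other alternatives. Its difference in response stayed positive, at 0.66 to 1.30 with 1 library left out and 0.46 to 1.03 in the other alternatives. None of these was called. MIR29B1 for dabrafenib in A375-BIR gained a call with the 1 CPM filter (−1.05) and DESeq2 size factors (−0.94). The sum of MIR29B1 and MIR29B2 lost its call over both treatments with size factors (−0.51), the Wald test (−0.54) and 4 left-out libraries (range −0.75 to −0.49). In dabrafenib this sum ranged from −0.40 to 0.12 with 1 library left out and from −0.68 to −0.11 in the other alternatives.

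For dabrafenib in A375 the sign turned with the 1 CPM filter, size factors, the Wald test, no filter, only the libraries compared and total counts. In that order MIR29A gave −0.29, −0.0808, −0.0923, −0.26, −0.0626 and −0.37, with −0.32 to 0.34 over left-out libraries. MIR29B1 gave −0.31, −0.11, −0.0910, −0.29, −0.12 and −0.40, with −0.18 to 0.29 over left-out libraries and −0.0205 without rRNA-like rows. Their sum gave −0.30, −0.0930, −0.0882, −0.28, −0.0824 and −0.38, with −0.13 to 0.30 over left-out libraries and −0.00405 without rRNA-like rows. None of these was called. For dabrafenib in A375-BIR MIR29A turned to 0.0314 with only the libraries compared, and ranged from −0.39 to 0.0942 over left-out libraries. For the difference in response MIR29A gave −0.0123 with the 1 CPM filter and −0.29 with total counts, and −0.26 to 0.53 over left-out libraries. The sum gave −0.00468 with total counts.

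The count of called rows for dabrafenib in A375-BIR was 19 with only the libraries compared and 20 to 46 over left-out libraries. For the difference it was 2 without rRNA-like rows and 3 to 6 over left-out libraries. The MIR29A share ranged from −18.1 to −9.79 points between the lines over left-out libraries, and the share of the chromosome 1 pair from −0.74 to 0.22, turning without replicate 1 of A375-BIR in DMSO (0.20) or replicate 2 of A375-BIR in dabrafenib (0.22).

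Among other precursors over both treatments, MIR143 turned with the 1 CPM filter (−0.0343), no filter (−0.0521) and total counts (−0.12), and ranged from −0.23 to 0.29 over left-out libraries. MIR181A1 turned with the same 3 (−0.0214, −0.0378 and −0.13), and MIR21 with total counts (−0.0745). MIR25 turned with size factors (0.0574) and the Wald test (0.0246), and ranged from −0.17 to 0.00631 over left-out libraries, and MIR92A1 from −0.27 to 0.0247. None of these was called. The cause of these shifts was not tested.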
